A study of Homo sapiens with 15 samples.

Results

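The genes that carry peptides to the cell surface on MHC class I molecules were followed in BEAS-2B cells exposed to PM2.5, fine particulate matter, here collected from the air of Beijing. They were HLA-B, HLA-C, HLA-E, HLA-F, B2M, TAP1, TAP2, TAPBP and NLRC5. They were chosen by symbol, from the Ensembl identifiers in the count table, and make up 9 of its 58219 genes. BEAS-2B is a bronchial epithelial cell line, grown here without serum on plates coated with collagen. In the single-exposure protocol, cells were kept for 24 h with vehicle (fresh medium alone) or with PM2.5 at 1 µg/cm2 or 30 µg/cm2. In the repeated protocol, cells received vehicle or 1 µg/cm2 of PM2.5 daily, with a wash between exposures, and RNA was collected on day 7. The labels describe the repeated exposures as covering 7 days, and the study's methods count 1 exposure fewer. Each of the 5 conditions had 3 libraries from independent experiments of the same line, for 15 libraries in all, with 21460981 to 34724765 reads counted on genes per library.

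MHC class I molecules display short peptides, cut mainly from proteins of the cytosol and nucleus, to cytotoxic T cells and to receptors of natural killer cells. Each molecule consists of a polymorphic heavy chain, the invariant light chain beta-2 microglobulin and a peptide. The TAP1 and TAP2 proteins together form the transporter that carries peptides into the endoplasmic reticulum, where tapasin, the product of TAPBP, holds empty class I molecules beside it. NLRC5 is a transactivator of class I genes, which interferons also induce in most cells, epithelial cells included.

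Reads were counted for 8 of the 9 genes, and all 8 passed the filter on low counts. TAP2 (ENSG00000204267.13, GRCh38 chr6:32821833-32838780) was listed at 0 counts in all 15 libraries, so nothing can be said of its level. Another gene of chromosome 6, DDX39B (ENSG00000198563.13, chr6:31530219-31542448), which encodes an RNA helicase that every cell uses, was also listed at 0 in all libraries (DDX39B was picked once its values had been seen). A gene on the same strand shares 2064 of the 6390 exon bases of TAP2 and was likewise at 0. The other members were counted as HLA-B (ENSG00000234745.10), HLA-C (ENSG00000204525.16), HLA-E (ENSG00000204592.8), HLA-F (ENSG00000204642.13), TAP1 (ENSG00000168394.10) and TAPBP (ENSG00000231925.11), all on chromosome 6, B2M (ENSG00000166710.17) on chromosome 15 and NLRC5 (ENSG00000140853.15) on chromosome 16. Heavy-chain genes resemble each other and differ between alleles, so the split of reads among them is uncertain. Of the 50-base stretches of HLA-C exons, 92.7% occurred once in the genome without alternate contigs and 8.87% with them. With alternate contigs included the share was 26.9% for HLA-B, 8.26% for B2M, 3.92% for HLA-F, 0.862% for TAP2 and 0% for HLA-E, TAP1 and TAPBP, against 99.9% for NLRC5. The 4 heavy chains were therefore also tested as a sum. HLA-B, HLA-F and TAP1 overlap genes on the opposite strand, of which HLA-F-AS1 alone had counts (195 in all libraries together), and whether counting used the strand is not given in the sources used here.

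The cell line was checked against markers. All 6 epithelial markers had more than 3 counts in at least 1 library of every condition, and their summed level in the 24-h controls was 1976 to 2498 CPM (counts scaled to library size with TMM factors). That sum was 825 to 1296 CPM at 30 µg/cm2, and 4 of the 6 epithelial markers fell there, against 4.24% of all genes. The sum of 8 leukocyte markers was 4.84 to 24.6 CPM over all libraries and came mostly from CD14, which had a mean of 11.4 CPM. PTPRC, the pan-leukocyte marker, reached at most 0.068 CPM. The 5 fibroblast markers summed to 44.4 to 91.0 CPM and the 4 endothelial markers to at most 3.58 CPM. In bulk RNA, fewer cells of a kind and less RNA per cell cannot be told apart.

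Per exon length, the light chain and the classical heavy chains had the most counts of the members. The share of stretches that occur once with alternate contigs differs between these genes. The order of counts may therefore differ from the order of their RNAs, which was not tested. In the 24-h controls, B2M had 168 ± 45.9 TPM (a scale that divides counts by exon length; SD, n = 3), HLA-C 143 ± 27.1 TPM and HLA-B 116 ± 46.3 TPM, and the ranges of these 3 genes overlapped. HLA-E, a heavy chain recognised by natural killer cells, had 40.1 ± 3.19 TPM and TAP1 18.0 ± 2.71 TPM, each apart from its neighbours. NLRC5 followed with 9.03 ± 1.78 TPM, HLA-F, a non-classical heavy chain, with 7.48 ± 3.21 TPM and TAPBP with 4.25 ± 1.57 TPM. The ranges of NLRC5 and HLA-F overlapped, as did those of HLA-F and TAPBP. In the 7-day controls, the order was B2M with 346 ± 14.7 TPM, HLA-C with 237 ± 4.95 TPM, HLA-B with 215 ± 8.24 TPM, HLA-E with 53.6 ± 0.715 TPM, TAP1 with 26.2 ± 0.781 TPM, HLA-F with 16.4 ± 0.692 TPM, NLRC5 with 13 ± 0.909 TPM and TAPBP with 5.16 ± 0.121 TPM. No ranges overlapped there. All levels below are TMM-scaled CPM, which compare 1 gene between libraries.

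**Figure D1:**
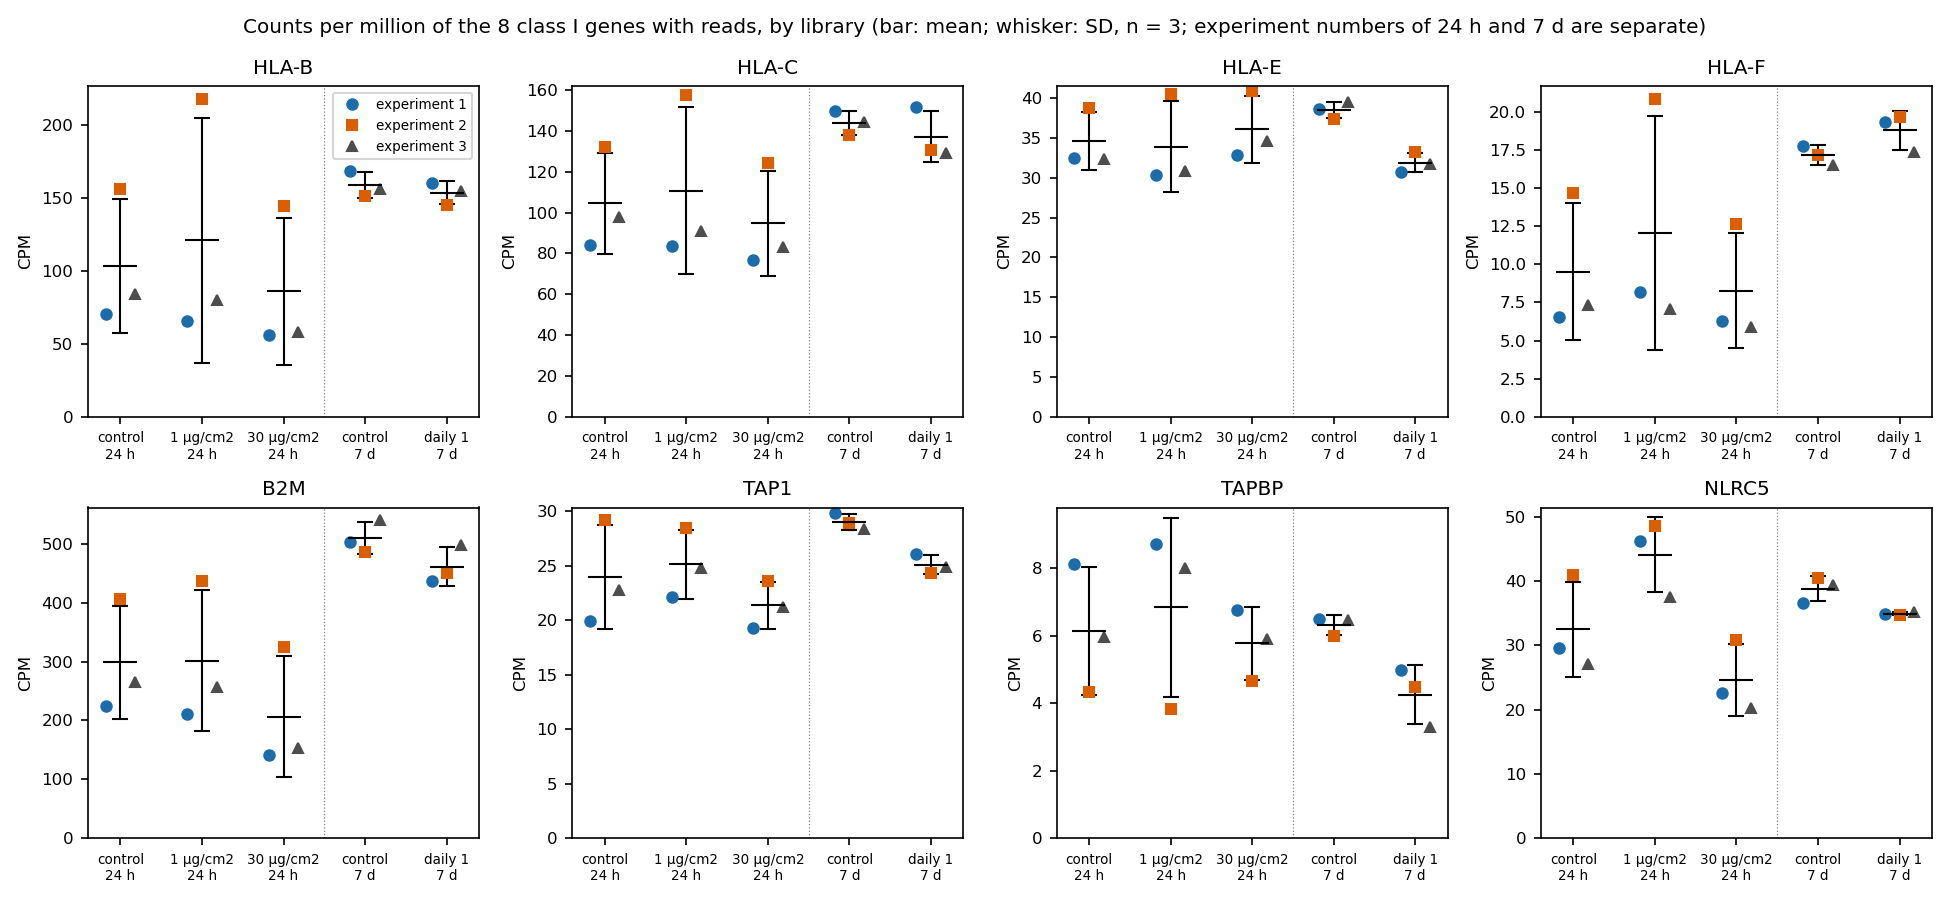
CPM (y axes, linear from 0) of the 8 class I genes with reads in the 5 conditions (x axes). Symbols are the 3 libraries of a condition by experiment number, bars are means and whiskers are SDs (n = 3). In the 24-h protocol the experiment 2 library was the highest for HLA-B, HLA-C, HLA-E, HLA-F, B2M, TAP1 and NLRC5 in each condition and the lowest for TAPBP.

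Experiment 2 of the 24-h protocol stood apart. Its control library had 156 CPM of HLA-B against 70.8 and 84.2 CPM in the other two controls, and 406 CPM of B2M against 224 and 266 CPM. The same order held at both doses. In each of the 3 conditions of that protocol, experiment 2 was the highest of the 3 libraries for every member with reads other than TAPBP, for which it was the lowest. Results that rest on these libraries are therefore also given without them or as differences within an experiment. The libraries left out were the extreme ones for these same members. Smaller spreads and adjusted p values without them follow in part from that choice.

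The 4 heavy-chain and light-chain genes that varied most alike over the libraries were HLA-B, HLA-C, HLA-F and B2M. Over the 15 libraries, Pearson's r of log2 CPM was 0.98 for HLA-B with HLA-C, 0.96 for HLA-B with HLA-F and 0.94 for HLA-B with B2M. TAP1 followed HLA-C with r = 0.88 and NLRC5 followed it with r = 0.59. HLA-E was less alike, with r = 0.57 to HLA-C, and TAPBP ran the other way, with r = -0.63. These points share the contrast between protocols and the shift of experiment 2, and the values are descriptions. The split of reads among the heavy chains is uncertain, and its part in these values was not tested. The 200 bases before the RefSeq start of HLA-B, HLA-C, HLA-F and B2M are shown with their matches to short motifs. They come from RefSeq (GRCh38.p14), where 7 of the 9 members had a window and HLA-E and NLRC5 had none, and they are reference sequence, not the alleles of the line. Capitals mark matches on either strand to the Y box (CCAAT), the X2 box (TGACGC or TGACGT), the interferon-stimulated response element (ISRE, searched as GAAA repeated after 2 bases of any kind) and the NF-kappaB motif. The windows are chr6:31357180-31357379 (minus strand), chr6:31272093-31272292 (minus strand), chr6:29723234-29723433 (plus strand) and chr15:44711317-44711516 (plus strand).
HLA-B: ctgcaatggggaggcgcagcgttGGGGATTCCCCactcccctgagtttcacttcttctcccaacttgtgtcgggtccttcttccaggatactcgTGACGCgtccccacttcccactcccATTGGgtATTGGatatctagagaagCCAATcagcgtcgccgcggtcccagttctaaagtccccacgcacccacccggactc
HLA-C: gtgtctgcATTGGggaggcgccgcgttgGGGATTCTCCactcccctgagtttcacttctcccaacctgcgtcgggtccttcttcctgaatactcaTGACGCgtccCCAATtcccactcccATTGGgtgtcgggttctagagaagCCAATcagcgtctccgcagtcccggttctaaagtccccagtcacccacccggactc
HLA-F: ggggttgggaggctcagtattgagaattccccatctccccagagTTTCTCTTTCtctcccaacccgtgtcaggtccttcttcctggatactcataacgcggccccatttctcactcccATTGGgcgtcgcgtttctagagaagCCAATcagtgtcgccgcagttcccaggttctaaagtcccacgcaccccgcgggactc
B2M: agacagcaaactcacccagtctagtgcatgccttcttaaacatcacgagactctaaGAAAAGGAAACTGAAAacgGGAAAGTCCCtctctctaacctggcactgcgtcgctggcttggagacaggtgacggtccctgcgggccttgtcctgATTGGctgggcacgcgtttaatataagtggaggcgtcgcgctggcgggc
All 4 held a Y box. HLA-B and HLA-C held an X2 box as well, at -106 to -101 and at -105 to -100 from the start, and an NF-kappaB match. HLA-F held 1 ISRE match, and B2M held 2 overlapping ISRE matches beside an NF-kappaB match. In windows of 300 bases, TAP1 (in the first of its 2 windows) and TAPBP also held ISRE and NF-kappaB matches, and TAP2 held an ISRE and an X2 box match. No match between different motifs overlapped another. Of all 35116 RefSeq windows of that length, 34.6% held a Y box, 16.1% an X2 box, 3.57% an ISRE and 5.91% an NF-kappaB match. A match describes the letters only.

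The first comparison asked how a high dose changed these genes within a day. None of the 8 tested members was called at 30 µg/cm2 against control, where a call by edgeR's quasi-likelihood test needed an adjusted p under 0.05 and a log2 fold change of 0.6 or more in size. Over all 17599 genes tested, 3.82% were called higher and 4.24% lower. 1 of the 8 members had an unadjusted p under 0.05, as did 4161 of all 17599 genes. DESeq2 also called 0 members. The median log2 fold change was -0.18 for the members and 0.03 for all genes. The summed heavy chains had 194, 342 and 222 CPM in the controls and 172, 322 and 181 CPM at 30 µg/cm2. The groups overlapped, and the log2 fold change of the sum was -0.16 ± 0.312 (SE; adjusted p = 0.810).

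B2M, the light chain, had the lowest fold change of the members at 30 µg/cm2. It had 224, 406 and 266 CPM in the controls of experiments 1 to 3 and 142, 325 and 153 CPM at 30 µg/cm2. The groups overlapped because experiment 2 was high in both, while the treated library was the lower in each of the 3 experiments, by log2 ratios of -0.66, -0.32 and -0.79. The log2 fold change was -0.53 ± 0.322 (edgeR adjusted p = 0.357). In the paired fit, with experiment number as a replicate block, it was -0.59 with an adjusted p of 0.000641, which passes the p threshold and lies just under the fold threshold. Without 24-h experiment 2, B2M was called lower, at a log2 fold change of -0.75 (adjusted p = 6.01e-05), as the 1 member called. There, 9.95% of all genes were called lower. Without the experiment 2 library at 30 µg/cm2 alone, B2M (log2 fold change -1.03, adjusted p = 0.0256) and NLRC5 (-0.60, adjusted p = 0.0274) were called lower, beside 8.14% of all genes.

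NLRC5 had 29.5, 40.9 and 27.1 CPM in the controls and 22.6, 30.9 and 20.3 CPM at 30 µg/cm2. The groups overlapped, and within each experiment the treated library was lower, by log2 ratios of -0.39, -0.41 and -0.41. The log2 fold change was -0.40 ± 0.176 (adjusted p = 0.182). HLA-B, a classical heavy chain, had 70.8, 156 and 84.2 CPM in the controls and 56.2, 144 and 57.9 CPM at 30 µg/cm2. It too was lower in all 3 experiments, with a log2 fold change of -0.27 ± 0.443 (adjusted p = 0.778). HLA-C, HLA-F and TAP1 were lower in 3 of 3 experiments and HLA-E higher in 3 of 3, with log2 fold changes between -0.19 and 0.06. TAPBP was lower in 2 of 3. None of these was called. With the replicate block, the adjusted p was 0.00646 for NLRC5 and 0.034 for HLA-B, at log2 fold changes of -0.40 and -0.33. Without 24-h experiment 2 it was 0.00511 and 0.00345, at -0.41 and -0.46. These values passed the p threshold and lay under the fold threshold. In all, 6 of the 8 tested members were lower in 3 of 3 experiments, against 23.8% of all genes. These 6 are not independent cases. Over the 15 libraries, Pearson's r was 0.93 to 0.98 among HLA-B, HLA-C, HLA-F and B2M, and 0.81 to 0.88 for TAP1 with them. The epithelial marker sum was also lower at 30 µg/cm2, and its part in the differences of the members was not tested.

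At 1 µg/cm2 for 24 h, no member was called either. Among all genes, 0.0455% were called higher and 0.017% lower. DESeq2 again called 0 members. 1 of the 8 members had an unadjusted p under 0.05, as did 534 of all 17599 genes. That member was NLRC5, with 46.1, 48.5 and 37.5 CPM at 1 µg/cm2 against 29.5, 40.9 and 27.1 CPM in the controls. The treated library was higher within each experiment, by log2 ratios of 0.64, 0.25 and 0.47, and 8 of the 9 pairs of libraries across the groups showed that direction. Its log2 fold change was 0.44 ± 0.176, with a 95% interval of 0.05 to 0.83, an unadjusted p of 0.0254 and an adjusted p of 1 over all genes. Without 24-h experiment 2 the log2 fold change was 0.57 (adjusted p = 0.00274), still under the fold threshold.

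The other members showed no common direction at 1 µg/cm2. HLA-B had 65.4, 218 and 80.3 CPM, and B2M had 211, 437 and 257 CPM. For both, the library of experiment 2 was above its control and those of experiments 1 and 3 were below theirs. The log2 fold changes were 0.22 ± 0.442 for HLA-B and 0.02 ± 0.321 for B2M, and without experiment 2 they were -0.08 and -0.05. The 95% interval of B2M was -0.70 to 0.73 in the unpaired fit. With the replicate block its log2 fold change was -0.01 ± 0.0957.

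The 2 doses were compared directly, with the libraries of both comparisons above. NLRC5 was the 1 member called, and it was lower at 30 than at 1 µg/cm2. It had 22.6, 30.9 and 20.3 CPM at 30 µg/cm2 and 46.1, 48.5 and 37.5 CPM at 1 µg/cm2, with no overlap, as did 10% of all genes in that direction. It fell by 0.84 ± 0.177 on the log2 scale (fold 0.558, edgeR adjusted p = 0.00857) and was lower in 3 of 3 experiments. Over all genes, 3.62% were called higher and 4.22% lower. With the replicate block NLRC5 was again the 1 member called, against 8.58% of all genes called lower. Fitted on the 24-h libraries alone, its log2 fold change was -0.85 with an adjusted p of 0.0781, and on the libraries of these groups alone -0.87 with 0.114. Without the experiment 3 library at 30 µg/cm2, it was -0.72 with an adjusted p of 0.0542.

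B2M had a log2 fold change of -0.55 ± 0.322 between the doses (adjusted p = 0.329), with libraries at 142, 325 and 153 CPM against 211, 437 and 257 CPM. It was lower at 30 µg/cm2 in all 3 experiments, by log2 ratios of -0.57, -0.43 and -0.75. Without 24-h experiment 2 it was called lower, with a log2 fold change of -0.69 (adjusted p = 0.000132), beside NLRC5 (-0.98, adjusted p = 1.85e-06), while 9.97% of all genes were called lower. Without the experiment 2 library at 30 µg/cm2 alone, B2M was called as well, at -1.05 (adjusted p = 0.0242), beside 8.85% of all genes called lower. HLA-B, HLA-C, HLA-F and TAP1 were also lower in 3 of 3 experiments, and HLA-E was higher in 3 of 3. With NLRC5 and B2M this makes 6 of 8 members lower, against 27.1% of all genes. Several of the 6 varied alike over the libraries, so they are not independent cases. With all libraries, no member except NLRC5 was called, in the fit without or with the block. With the block, the adjusted p was 0.000689 for B2M, 0.00883 for HLA-B and 0.0116 for HLA-F. Their log2 fold changes there were -0.58, -0.43 and -0.47, under the fold threshold.

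**Figure D2:**
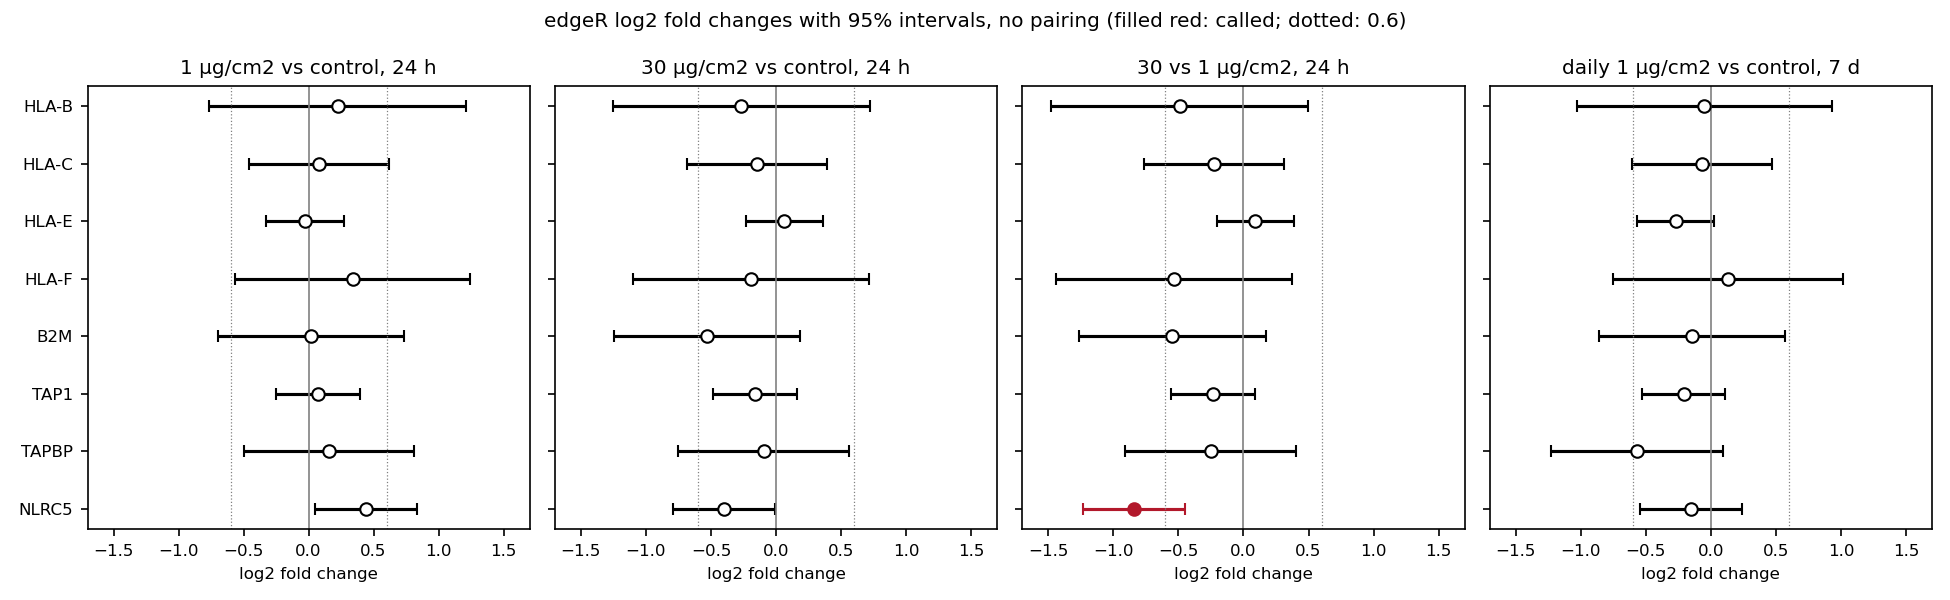
Log2 fold changes (x axes) of the 8 tested members (y axis) in 4 comparisons from edgeR's fit to all libraries without pairing, with 95% intervals on 10 residual degrees of freedom. The filled red point, NLRC5 between the doses at -0.84, is the 1 value called, and the dotted lines mark log2 0.6 in both directions.

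**Figure D3:**
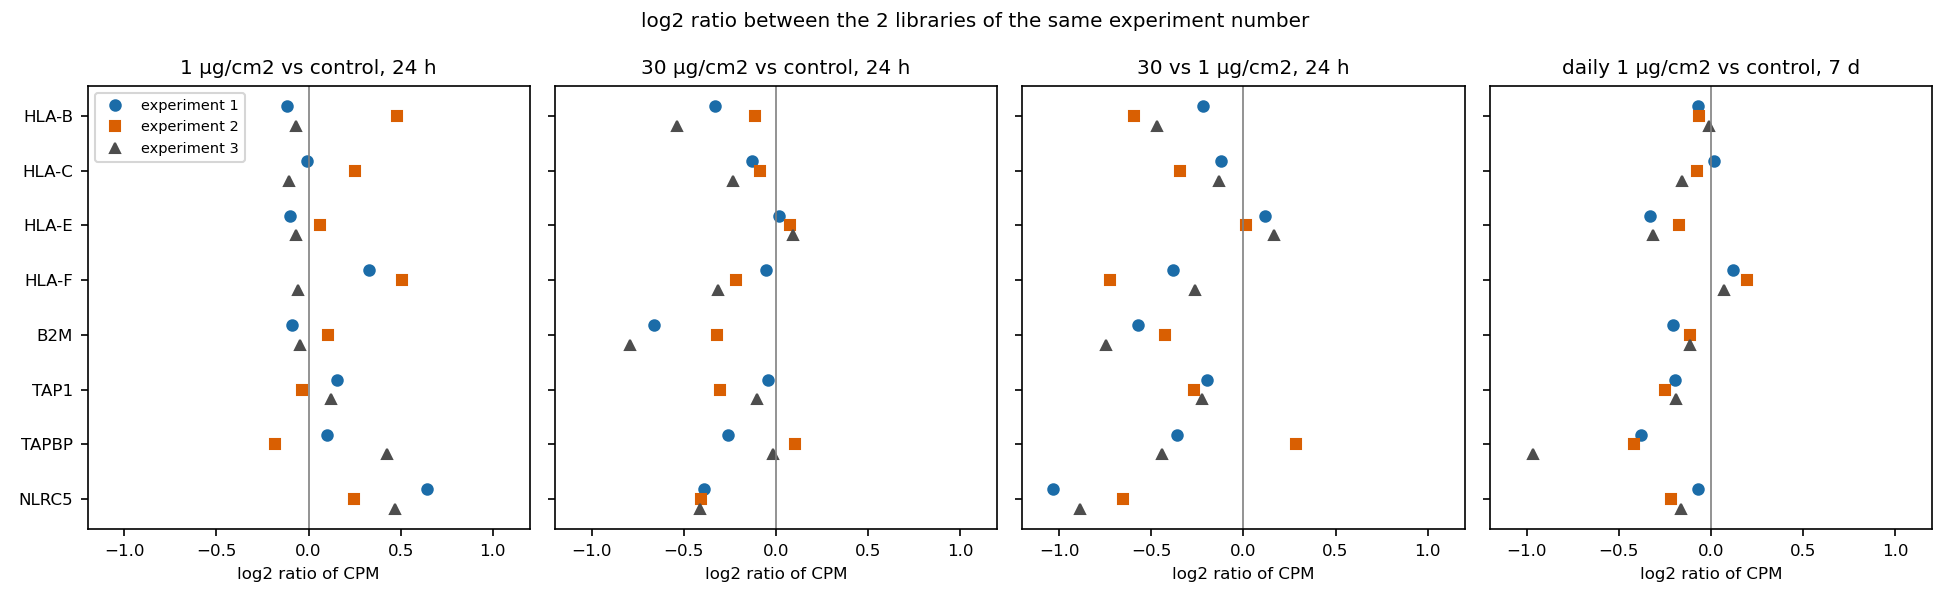
Log2 ratio of CPM (x axes) between the libraries of the same experiment number for the 8 tested members (y axis), 1 symbol per experiment. NLRC5 lies to the right of 0 in all 3 experiments at 1 µg/cm2 and to the left in all 3 at 30 µg/cm2, and B2M lies to the left in all 3 at 30 µg/cm2.

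After daily exposure to 1 µg/cm2, no member was called against the 7-day control. Among all genes, 0.102% were called higher and 0.125% lower. 0 members had an unadjusted p under 0.05, against 2102 of all 17599 genes, and DESeq2 called 0 members. The heavy-chain sum was 375, 344 and 356 CPM in the controls and 362, 329 and 333 CPM after exposure, with a log2 fold change of -0.07 ± 0.312 (adjusted p = 0.955). These groups overlapped. B2M had 503, 486 and 540 CPM in the controls and 436, 449.6 and 498 CPM after exposure, where 1 of the 9 pairs of libraries went the other way (log2 fold change -0.14 ± 0.321, adjusted p = 0.903).

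4 members were lower in all 9 pairs of libraries after daily exposure. TAPBP had 6.5, 5.98 and 6.46 CPM in the controls and 4.99, 4.48 and 3.31 CPM after exposure. HLA-E had 38.7, 37.4 and 39.5 CPM against 30.8, 33.2 and 31.8 CPM, and TAP1 had 29.8, 28.9 and 28.4 CPM against 26.1, 24.4 and 24.9 CPM. NLRC5 had 36.6, 40.4 and 39.3 CPM against 34.8, 34.7 and 35.1 CPM. None of these 4 ranges overlapped its control's, and none was called. Over all genes tested, 21.6% were lower after daily exposure without overlap. The log2 fold changes were -0.57 ± 0.297 for TAPBP (adjusted p = 0.483), -0.27 ± 0.133 for HLA-E (0.450), -0.21 ± 0.144 for TAP1 (0.613) and -0.15 ± 0.175 for NLRC5 (0.787). The SEs come from the fit to all libraries, in which the spread of the 24-h experiments enters. With the replicate block the adjusted p was 0.0435 for TAPBP and 0.0452 for HLA-E, with log2 fold changes of -0.58 and -0.27, both under the fold threshold. HLA-F was higher in 3 of 3 experiments, with a log2 fold change of 0.13 ± 0.398. The epithelial marker sum was 1382 to 1532 CPM after daily exposure and 2215 to 2719 CPM in its controls, and its part in these differences was not tested.

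The response to daily exposure was compared with the response to a single exposure at the same dose by the difference of their log2 fold changes. With all libraries and no block, edgeR called 0% of all genes higher and 0% lower, and so no member. DESeq2 called no member either. 1 member had an unadjusted p under 0.05 by edgeR, as did 1245 of all 17599 genes. NLRC5 was that member. Its response was 0.44 at 24 h and -0.15 after daily exposure, a difference of -0.59 ± 0.248 (adjusted p = 0.667). The log2 ratios within experiments were all above 0 at 24 h and all below 0 after daily exposure, at -0.07, -0.22 and -0.16. Taken 1 comparison at a time, 12.4% and 30.8% of all genes showed these directions. In the paired fit with the replicate block, the difference was -0.61 and NLRC5 was called (adjusted p = 0.0475), beside 0.682% of all genes called lower. Without 24-h experiment 2, the difference was -0.72 (adjusted p = 0.00153) and TAPBP was called as well at -0.82 (adjusted p = 0.0267), while 5.73% of all genes were called lower. Experiment numbers of the protocols are separate, and plating density and washing differed between them, so that number of exposures and protocol cannot be told apart.

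The controls of the protocols were compared to show the level from which each response started. No member was called with all libraries by edgeR or DESeq2, while 11.1% of all genes were called higher and 10.8% lower by edgeR. 1 member had an unadjusted p under 0.05, as did 7091 of all 17599 genes. The median log2 fold change was 0.37 for the members and 0.02 for all genes. B2M had 503, 486 and 540 CPM in the 7-day controls and 224, 406 and 266 CPM in the 24-h controls, without overlap. Its log2 fold change was 0.77 ± 0.323 (fold 1.71, adjusted p = 0.0892). HLA-F had 17.8, 17.2 and 16.5 CPM against 6.53, 14.7 and 7.33 CPM, and HLA-C 149.7, 138 and 144 CPM against 84.1, 132 and 97.6 CPM. Both were also without overlap, which makes 3 of 8 members against 27.6% of all genes, at log2 fold changes of 0.86 ± 0.406 (adjusted p = 0.130) and 0.46 ± 0.242 (adjusted p = 0.172). B2M, HLA-F and HLA-C varied alike over the libraries, so they are not independent cases.

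Other settings moved these calls. B2M was called in the fit to the control libraries alone (0.75, adjusted p = 0.0254) beside 13.3% of all genes called higher, and B2M (0.79) and HLA-F (0.88) with no filter on low counts beside 6.08%. Without the experiment 2 control library at 24 h, HLA-F (1.29, adjusted p = 0.0373) and B2M (1.04, adjusted p = 0.0414) were called, beside 11% of all genes.

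The 24-h libraries of experiment 2 were then left out at all doses. They were the highest of their conditions for HLA-B, HLA-C, HLA-F and B2M. Leaving them out therefore raised the difference and lowered the spread by construction. The SE of B2M went from 0.323 to 0.103, and the adjusted p values below depend on that choice. HLA-F (log2 fold change 1.29, adjusted p = 7.53e-08), B2M (1.04, adjusted p = 3.29e-07), HLA-B (1.02, adjusted p = 2.95e-07) and HLA-C (0.65, adjusted p = 1.66e-05) were called higher in the 7-day controls, which is 4 of the 8 tested members against 16.1% of all genes. These 4 genes varied alike over the libraries, so they are not independent cases. The heavy-chain sum had a log2 fold change of 0.51 with all libraries (adjusted p = 0.245) and of 0.77 without experiment 2 (adjusted p = 1.12e-06). TAPBP turned from 0.04 to -0.18, and neither value was called. Time in culture, plating density, washing and the set of experiments cannot be told apart in this comparison.

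**Figure D4:**
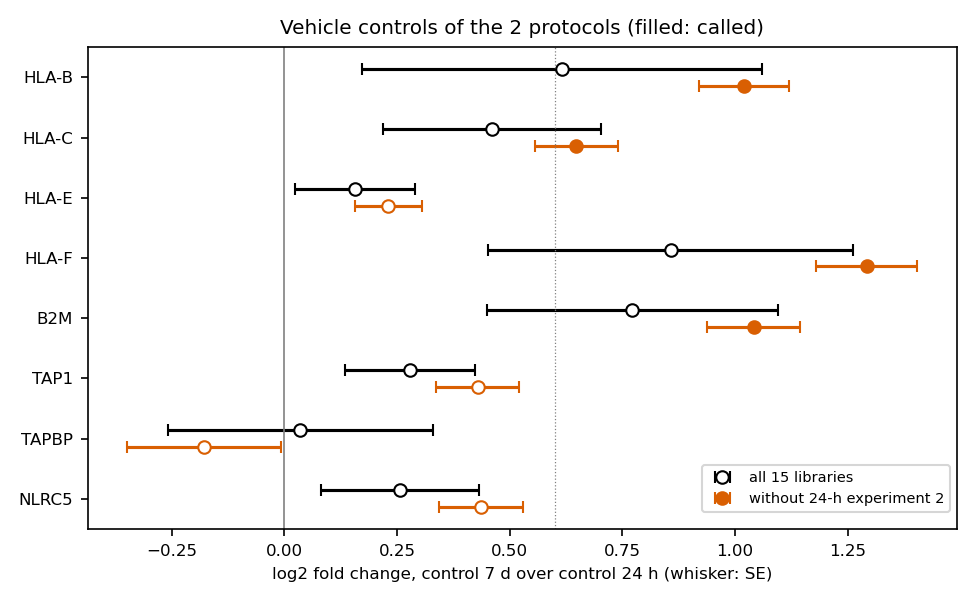
Log2 fold change (x axis, whiskers are SEs) of each member (y axis) in the 7-day over the 24-h vehicle controls, with all 15 libraries (black) and without the 24-h libraries of experiment 2 (orange). Filled points were called. These are HLA-B, HLA-C, HLA-F and B2M without experiment 2, and none with all libraries.

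Other genes of the pathway were taken from lists chosen with earlier results of these data known. Among 6 partners in peptide loading and trimming, 2 fell at 30 µg/cm2 against control, where 4.24% of all genes were called lower. CALR, the chaperone calreticulin that holds class I molecules during loading, went from 1244 ± 88.7 to 730 ± 154 CPM (log2 fold change -0.77 ± 0.195, adjusted p = 0.0223). ERAP2, an aminopeptidase that trims peptides in the endoplasmic reticulum, went from 173 ± 4.61 to 102 ± 10.1 CPM (log2 fold change -0.77 ± 0.110, adjusted p = 0.000606). ERAP2 was also lower at 30 than at 1 µg/cm2, at -0.84 ± 0.110 (adjusted p = 0.000468). With all libraries and no block, no partner was called at 1 µg/cm2, after daily exposure or between the controls. CALR was called lower after daily exposure with the replicate block, beside 2.79% of all genes.

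None of the 5 immunoproteasome and PA28 genes was called in any comparison with all libraries and no block. The most abundant were the proteasome activator subunits PSME1, with 229 CPM in the 24-h controls and 169.8 CPM at 30 µg/cm2 (log2 fold change -0.43 ± 0.383), and PSME2, with 195 and 187 CPM (-0.06 ± 0.286). With the replicate block, 3 of the 5 were called lower between the doses and 1 against control at 30 µg/cm2, and without 24-h experiment 2, 3 were called lower in each. Of all genes, 8.58% and 7.87% were called lower with the block in these comparisons, and 9.97% and 9.95% without 24-h experiment 2. None of 12 factors known to act on class I promoters was called with all libraries, without or with the block. When the 24-h libraries of experiment 2 were left out, 3 were called lower between the doses, 1 in the 7-day controls and 1 in the difference of responses, against 9.97%, 14.9% and 5.73% of all genes. RFX5, a subunit of a complex that binds the X box and named here after its values were seen, had a log2 fold change of -0.51 ± 0.112 at 30 µg/cm2 (adjusted p = 0.00971), under the fold threshold. RELA, a subunit of NF-kappaB, had 85.3 CPM in the controls and 105 CPM at 30 µg/cm2 (log2 fold change 0.30 ± 0.103, adjusted p = 0.0890), and CREB1, a factor known to bind the X2 box, had 73.2 and 72.1 CPM.

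Some interferon-stimulated genes fell at 30 µg/cm2, and most were higher in the 7-day controls. Of 20 tested, 5 fell at 30 µg/cm2 and 0 rose, with a median log2 fold change of -0.80, and with the replicate block 11 were called lower and 1 higher, while without 24-h experiment 2, 12 were called lower and 0 higher. Of all genes, 4.24% were called lower and 3.82% higher with all libraries and no block. The shares were 7.87% and 7.36% with the block, and 9.95% and 9.16% without 24-h experiment 2. The 4 of smallest p were IFI44, from 22.2 ± 3.53 to 6.94 ± 0.215 CPM, IFI44L, from 17.6 ± 6.48 to 2.80 ± 1.24 CPM, IFIT1, from 22.0 ± 4.13 to 6.90 ± 4.12 CPM, and GBP1, from 33.4 ± 3.79 to 19.2 ± 4.42 CPM. IFIT1 encodes a protein that binds foreign RNA, and GBP1 a guanylate-binding protein. At 1 µg/cm2 and after daily exposure 0 of the 20 were called by edgeR with all libraries and no block. With the block 1 and 2 were called lower, against 0.17% and 2.79% of all genes. At 1 µg/cm2, 2 were called lower without 24-h experiment 2, against 0.997% of all genes. In the 7-day controls against the 24-h controls 13 of 20 rose and 0 fell, with a median of 1.14, against 11.1% and 10.8% of all genes. Without 24-h experiment 2, 17 rose and 1 fell, against 16.1% and 14.9% of all genes. Among the 13 were MX1 (9.66 ± 1.04 to 36.6 ± 4.27 CPM), IFIT2 (10.9 ± 1.48 to 34.4 ± 5.98 CPM), IFI44 (22.2 to 53.9 CPM) and IFI27 (2.35 ± 0.696 to 11.7 ± 2.13 CPM).

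Of 18 interferon ligands, receptors and signalling genes, 13 were tested. None was called in any exposure comparison with all libraries, and 1 was called lower in the difference of responses without 24-h experiment 2, where 5.73% of all genes were. At 30 µg/cm2 the kinase TYK2, among the most abundant, had a log2 fold change of 0.16. In the 7-day controls 3 rose, while 11.1% of all genes were called higher. Among the 3 were IFNLR1, a subunit of the interferon lambda receptor (8.71 ± 0.535 to 16.8 ± 1.68 CPM, log2 fold change 0.95 ± 0.210) and IRF9, a transcription factor of the interferon response (4.15 ± 0.991 to 6.46 ± 0.962 CPM, 0.64 ± 0.225). The interferon genes IFNB1, IFNG, IFNL1, IFNL2 and IFNL3 did not pass the filter, and the highest was IFNB1 with at most 0.292 CPM in any library.

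Among 12 tested class I-like molecules, 2 rose and 0 fell at 30 µg/cm2 (2 higher and 2 lower with the replicate block). The shares of all genes called there were 3.82% higher and 4.24% lower, and 7.36% and 7.87% with the block. Both encode stress-induced ligands of the natural killer receptor NKG2D. ULBP1 went from 7.97 ± 5.17 to 22.2 ± 5.28 CPM (log2 fold change 1.49 ± 0.346, adjusted p = 0.0141) and ULBP2 from 7.01 ± 1.23 to 16 ± 3.02 CPM (1.19 ± 0.189, adjusted p = 0.00121). Both were also higher at 30 than at 1 µg/cm2, where HFE, a class I-like regulator of iron uptake, fell by 0.79 ± 0.157 on the log2 scale (adjusted p = 0.00621). None was called at 1 µg/cm2 or after daily exposure with all libraries, and 1 was called higher at 1 µg/cm2 without 24-h experiment 2, where 1.11% of all genes were. RAET1E, another NKG2D ligand, and MR1, which presents metabolites to T cells, rose in the 7-day controls, at log2 fold changes of 1.12 ± 0.276 and 0.80 ± 0.134. They were 2 of the 12, and 11.1% of all genes were called higher in those controls. There, 6 of the 12 were called higher and 3 lower without 24-h experiment 2, against 16.1% and 14.9% of all genes. Of 11 MHC class II genes, 5 were tested, and none was called in an exposure comparison with all libraries and no block. With the block, 1 was called higher and 2 lower at 30 µg/cm2, against 7.36% and 7.87% of all genes. Between the controls, CD74, the class II invariant chain (1.87 ± 0.226 to 0.653 ± 0.288 CPM), and HLA-DPB1 fell and HLA-DQB1 rose, all with group means of at most 2.88 CPM in the controls. There, 10.8% of all genes were called lower and 11.1% higher.

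**Figure D5:**
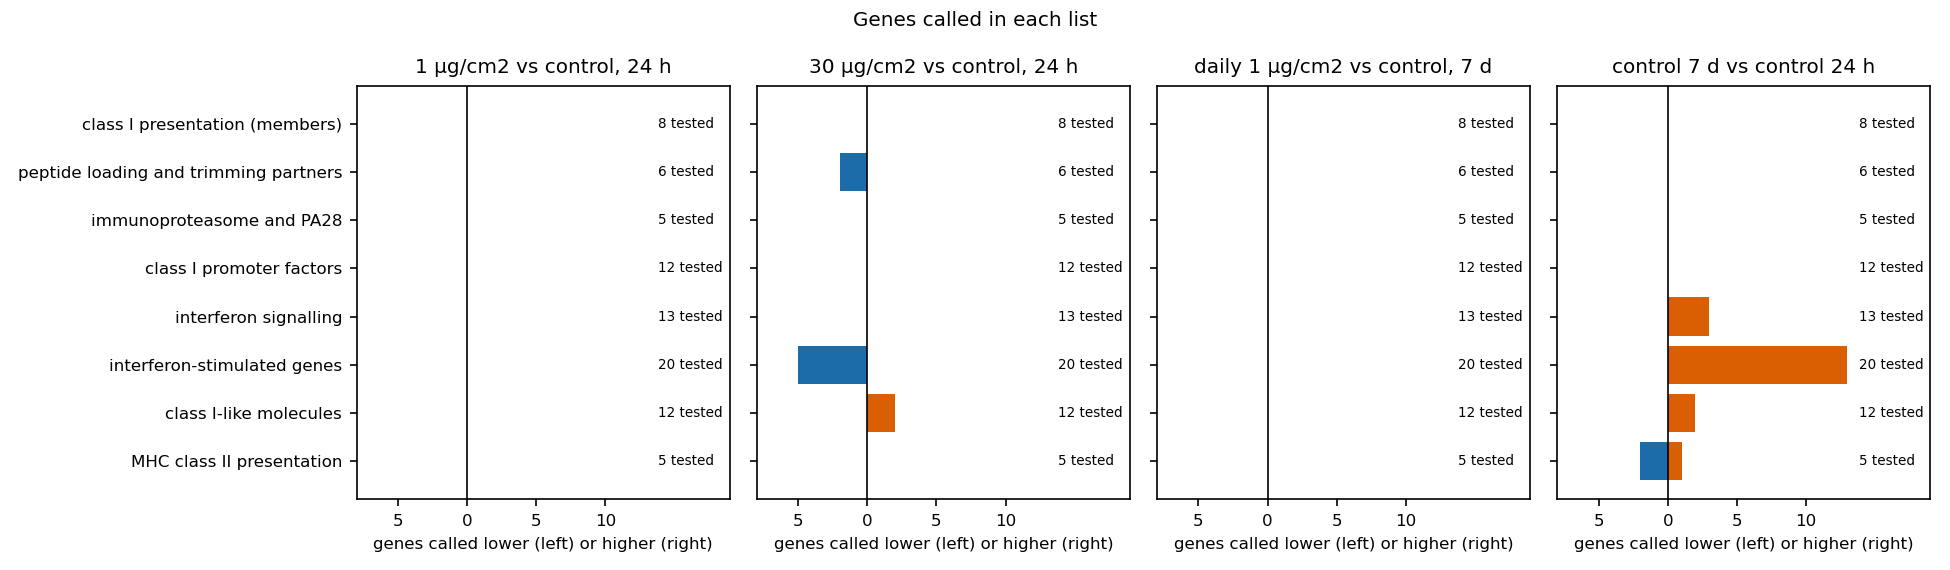
Number of genes called lower (left, blue) or higher (right, orange) in each of 8 gene lists (y axis) for 4 comparisons, from the fit without pairing, with the number tested at the right of each panel. Interferon-stimulated genes have 5 lower at 30 µg/cm2 and 13 higher in the 7-day controls, while the class I presentation genes have 0 in each panel.

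The genes whose log2 CPM followed the mean standardised profile of the 8 members most closely over the 15 libraries were IDH2 (Pearson's r = 0.99), SYNGR1 (0.98), ST3GAL4 (0.98), GSN (0.97) and UBAC1 (0.97). IDH2, a mitochondrial isocitrate dehydrogenase, had mean levels of 85.3 CPM in the 24-h controls, 91.4 CPM at 1 µg/cm2, 69.2 CPM at 30 µg/cm2, 129 CPM in the 7-day controls and 99.9 CPM after daily exposure. GSN, which encodes the actin-severing protein gelsolin, had 170.2 CPM, 172 CPM, 116 CPM, 259 CPM and 199 CPM in the same order. These libraries share the shift of experiment 2 and the contrast of the protocols, so the values describe likeness over 15 libraries and no more.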

How the data were processed

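RNA from 15 BEAS-2B libraries was sequenced as short single-end reads after poly-A enrichment. The authors aligned the reads with STAR and deposited 1 table of featureCounts counts per gene, not normalized, with the summed exon length of each gene. The paper names GRCh38, and the submitters' processing notes name hg19. Coordinates in the table match GRCh38. The options of featureCounts, its strand setting and the use of alternate contigs are not given in the sources used here.

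Gene symbols came from a reference table matched on Ensembl identifiers, which named 57437 of 58219 genes. Tests used edgeR 4.0.16 under R 4.3.3. The filterByExpr filter kept 17599 genes, and TMM scaled the libraries. The quasi-likelihood model had 1 mean per condition over all 15 libraries. A call needed a Benjamini-Hochberg adjusted p (over all tested genes) under 0.05 and a log2 fold change of 0.6 or more in size. Each SE is the log2 fold change over the root of F. TPM was computed from counts and exon lengths. Depth was 21460981 to 34724765 counts per library, where a floor of 3 counts is 0.0864 to 0.140 CPM, covering counting error only.

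Experiment numbers come from the labels, and the series record gives each as a batch, so same-numbered libraries of a protocol were taken as paired. Deviations from group means correlated at 0.20 to 0.72 for same-numbered libraries at 24 h and 0.12 to 0.18 in the repeated protocol. For differently numbered libraries of a protocol the values were -0.68 to 0.45 at 24 h and -0.13 to -0.03 in the repeated protocol. The 24-h ranges overlapped. A fit with this number as a replicate block could not be made between the controls of the protocols. Alternatives were RLE and upper quartile scaling, other filters, the libraries fitted, DESeq2 1.42.0, the likelihood ratio test, edgeR's current mode, the adjusted p alone, and leaving out each library or 24-h experiment 2. Code was tested on simulated data holding 200 known changes.

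Named genes were all 9 members, the called genes of each list, at most 4 by smallest p, or the 2 most abundant where none was called, and the 5 genes most like the members. Results of some list genes are not reported here. The members and lists were chosen with earlier results of these data known, as was the setting without 24-h experiment 2. Applying that setting to the gene lists, and giving the share of all genes called under each other setting, were chosen after seeing the data. Figures were drawn with matplotlib 3.10.9.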

Additional observations from a re-analysis of the deposited data

Results flagged for a closer look

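The response of NLRC5 to 1 µg/cm2 differed between the protocols in the test of the difference that used the replicate block, where the daily response minus the single response was -0.61 on the log2 scale (edgeR adjusted p = 0.0475). The treated library was above its control in 3 of 3 experiments at 24 h and below it in 3 of 3 after daily exposure. The same held for 12.4% of all genes at 24 h and for 30.8% after daily exposure, each comparison taken alone. Without the block the difference was -0.59 with an adjusted p of 0.667. Over 22 alternatives for NLRC5 the difference was between -0.80 and -0.47. It was called in 2 of them, the replicate block and the fit without 24-h experiment 2.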

How the results depend on the processing

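The 1 call, NLRC5 between the doses, kept its direction in all 17 alternatives run for it, and so did B2M and NLRC5 at 30 µg/cm2 against control. NLRC5 was lower at 30 than at 1 µg/cm2 by log2 -1.05 to -0.72 (adjusted p 1.85e-06 to 0.114), and members called lower there were 0 with the libraries of the 24-h protocol only and of the groups compared only, 2 without 24-h experiment 2 (9.97% of all genes), and 0 to 2 when leaving out 1 library (8.85% where it was 2). Members called lower at 30 µg/cm2 against control were 1 without 24-h experiment 2 (9.95% of all genes) and 0 to 2 when leaving out 1 library (8.14% where it was 2). Members called higher in the 7-day controls were 2 with no filter on low counts (6.08% of all genes), 1 with the libraries of the groups compared only (13.3%), 4 without 24-h experiment 2 (16.1%) and 0 to 2 when leaving out 1 library (11% where it was 2), while their heavy-chain sum was 0.77 without 24-h experiment 2 and was then called. In the difference of responses, 1 member was called lower with the replicate block (0.682% of all genes) and 2 without 24-h experiment 2 (5.73%). The paired fit with the replicate block changed no other call among the members. DESeq2, RLE or upper quartile scaling, the likelihood ratio test and the adjusted p alone changed no call.

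Directions that turned belong to values that were not called. B2M at 1 µg/cm2 against control was -0.0078 with no filter, -0.0116 with the replicate block and -0.0548 without 24-h experiment 2. Without 24-h experiment 2, the heavy-chain sum was -0.0568, HLA-B -0.0785 and HLA-C -0.0482 in that comparison, TAPBP was -0.1785 in the 7-day controls and HLA-B 0.0319 in the difference of responses. Leaving out 1 library at a time gave these ranges of log2 fold change. For 1 µg/cm2 against control they were -0.3488 to 0.4372 for the heavy-chain sum, -0.3516 to 0.3194 for B2M, -0.5104 to 0.6624 for HLA-B, -0.2613 to 0.3015 for HLA-C, -0.1739 to 0.078 for HLA-E, -0.3132 to 0.8047 for HLA-F, -0.0466 to 0.2524 for TAP1 and -0.0308 to 0.4417 for TAPBP. For 30 µg/cm2 against control they were -0.5217 to 0.1119 for the heavy-chain sum, -0.8705 to 0.1474 for HLA-B, -0.3953 to 0.0555 for HLA-C, -0.0406 to 0.1513 for HLA-E, -0.6434 to 0.253 for HLA-F, -0.2985 to 0.0002 for TAP1 and -0.2882 to 0.1491 for TAPBP. For 30 against 1 µg/cm2 they were -0.6664 to 0.1678 for the heavy-chain sum, -1.1004 to 0.2252 for HLA-B, -0.4834 to 0.1029 for HLA-C, -0.0189 to 0.2251 for HLA-E and -0.9868 to 0.1059 for HLA-F. For the difference of responses they were -0.5002 to 0.2862 for the heavy-chain sum, -0.4559 to 0.2155 for B2M, -0.7047 to 0.4684 for HLA-B, -0.3633 to 0.1999 for HLA-C and -0.6664 to 0.4519 for HLA-F. For the 7-day against the 24-h controls they were -0.179 to 0.2588 for TAPBP. The cause of these shifts was not tested.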
